A study of Homo sapiens with 15 samples.

Results

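Translation factors are the proteins that carry ribosomes through protein synthesis, and their own mRNAs were followed here into condensates pelleted from U2OS cytosolic extract. The members were protein-coding genes whose symbol starts with EIF (initiation factors) or EEF (elongation factors) followed by a digit, without pseudogenes and without the EIF2AK kinases. Of the 57500 genes in the count files, 65 matched these conditions. Of these, 59 reached 10 counts in no fewer than 2 replicates of every one of the 5 conditions, a filter that 16612 genes passed in all. The other 6 (EIF4EBP3, EIF4E1B, EEF1E1-BLOC1S5, EIF2S3B, EEF1AKMT1 and EIF1AY) fell below the filter and were not tested. The nearest of them was EIF4EBP3, with 4, 3 and 12 counts in the PEG pellets, whereas EIF3CL was the member closest to the limit from above, with a second-highest count of 16 in its lowest group.

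The samples were 15 poly(A)-selected RNA-seq libraries, 3 biological replicates in each of 5 groups, all made from U2OS, a human osteosarcoma line that the labels call wild type. The study's text on these pellets speaks of condensates of YFP-tagged G3BP1, and which cells were used could not be settled here. The input group was cytosolic extract that was not pelleted. The other groups were pellets spun for 10 min at 14000 g from translation reactions run for 2 h at 37 °C: untreated (mock), with 250 nM double-stranded RNA (dsRNA), with 2 µg/ml silvestrol, or with 1% polyethylene glycol (PEG). All pellets, mock included, were washed and extracted in the same way. No incubation or wash is given for input. A comparison with input thus takes in sedimentation, incubation and washing together, and their parts cannot be separated here. The dsRNA served to switch on the kinase PKR, which phosphorylates eIF2α. Silvestrol inhibits the helicase eIF4A, and PEG is a crowding agent used as a trigger of phase separation that does not depend on stress.

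In textbook terms, eIF4E, eIF4G and eIF4A assemble at the mRNA cap, eIF3 and the eIF2 ternary complex bring the small ribosomal subunit and initiator tRNA, and eIF1, eIF1A and eIF5 govern start codon selection. eIF5B joins the large subunit, after which eEF1A delivers aminoacyl-tRNA and eEF2 moves the ribosome along. Stress granules are the condensates in which mRNAs stalled at initiation gather together with several of these proteins. Many translation factor mRNAs are themselves under translational control through a pyrimidine tract at their 5′ end, the 5′ terminal oligopyrimidine (TOP) motif.

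Library totals were 23101982 to 46939993 counts for input, 32477292 to 45319526 for the mock, dsRNA and silvestrol pellets, and 15341973 to 25675182 for the PEG pellets. Levels are CPM, a gene's reads as a share of a library scaled to a fixed total, after normalization by edgeR's trimmed mean of M-values (TMM), and they say nothing of the amount of RNA in a pellet. A lower share and a gain of other RNAs cannot be told apart. Differences are log2 fold changes from edgeR's quasi-likelihood test, with a standard error (SE) and a p adjusted by Benjamini-Hochberg over all 16612 genes, and "rose" or "fell" is kept for an adjusted p under 0.05. Replicate 1 stood apart in every group: among the 59 members the median distance of replicate 1 from the mean of replicates 2 and 3 was 0.182 to 0.339 on the log2 scale, against 0.0583 to 0.115 between replicates 2 and 3. The osteoblast lineage genes RUNX2 (38.4 to 80.7 CPM by library size) and SPARC (466 to 658) were present in every library, SP7, COL1A2 and BGLAP were close to 0, and the hepatocyte gene APOB and the leukocyte gene CD3E stayed at or near 0. Some markers moved with the groups: COL1A1 averaged 583 CPM in input, 1337 in mock and 274 in PEG, and the nuclear RNAs MALAT1 and NEAT1 went from 218 and 736 in input to 300.5 and 1086 in mock and 468 and 295 in PEG. Their part in the changes of the members was not tested.

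All 59 members together took 2.69% ± 0.306 (SD, n = 3) of the counts in input, 2.20% ± 0.145 in mock, 2.14% ± 0.188 in dsRNA, 2.15% ± 0.234 in silvestrol and 2.52% ± 0.138 in PEG pellets. A large part of that share was one gene, EEF1A1, with 1.01% ± 0.259 of input counts. Without EEF1A1 the members took 1.68% ± 0.0496 of input counts and 1.54% ± 0.0261 of mock counts. Per kilobase of summed exon length, EEF1A1 had 1673 ± 383 CPM per kb in input (SD, n = 3), followed by EEF2 with 763 ± 146, EEF1A2 with 486 ± 11.0, EIF5A with 309 ± 93.7 and EEF1B2 with 201 ± 8.54. The spreads of EEF2 and EEF1A2 did not meet, whereas input EIF4B (169 ± 23.96) and EIF4H (165 ± 10.9) could not be separated. Summed exon length can exceed that of a single transcript. It was 2815 bases against 1511 for EIF5A, and 2006 against 2014 for EEF1A2, so this order depends on the length used.

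Most translation factor mRNAs made up a smaller share of the mock, dsRNA and silvestrol pellets than of input, and a few with long coding sequences went the other way. Against input, 25 of the 59 members fell and 4 rose in mock pellets, where 15.8% of all genes fell and 17.6% rose. In dsRNA pellets 30 fell and 5 rose, beside 19.6% and 21.1% of all genes. In silvestrol pellets 27 fell and 4 rose, beside 18.1% and 19.4%. The median log2 fold change of the members was -0.50, -0.51 and -0.48 in the 3 comparisons, and that of all genes was 0.0013, -0.00051 and 0.0036. With the replicate number as a blocking term, 8 members rose in mock and 7 in silvestrol, beside 32.5% and 30.8% of all genes. Several of these calls depended on which libraries were kept. Of the 6 fits with 1 library left out, 3 or more did not call EIF2B3, EIF2D, EIF3K, EIF6, EIF4ENIF1, EIF4G1, EIF4E and EIF4EBP1 in mock, EIF4G3, EEF1A1, EIF3L, EIF2D, EEF1E1, EIF3F, EIF6 and EEF1A2 in dsRNA, or EEF1A2, EIF2D and EIF4ENIF1 in silvestrol. The 3 comparisons share the same input libraries, so they are not independent of each other. PEG pellets were different, with 22 members higher and 10 lower than input, beside 25.5% and 25.9% of all genes, and a median of 0.24 (all genes -0.0094). With scaling by library size alone, 14 members were higher and 20 lower, beside 2337 higher and 6890 lower of all 16612 genes. The median there was -0.11 for the members and -0.35 for all genes.

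**Figure D1:**
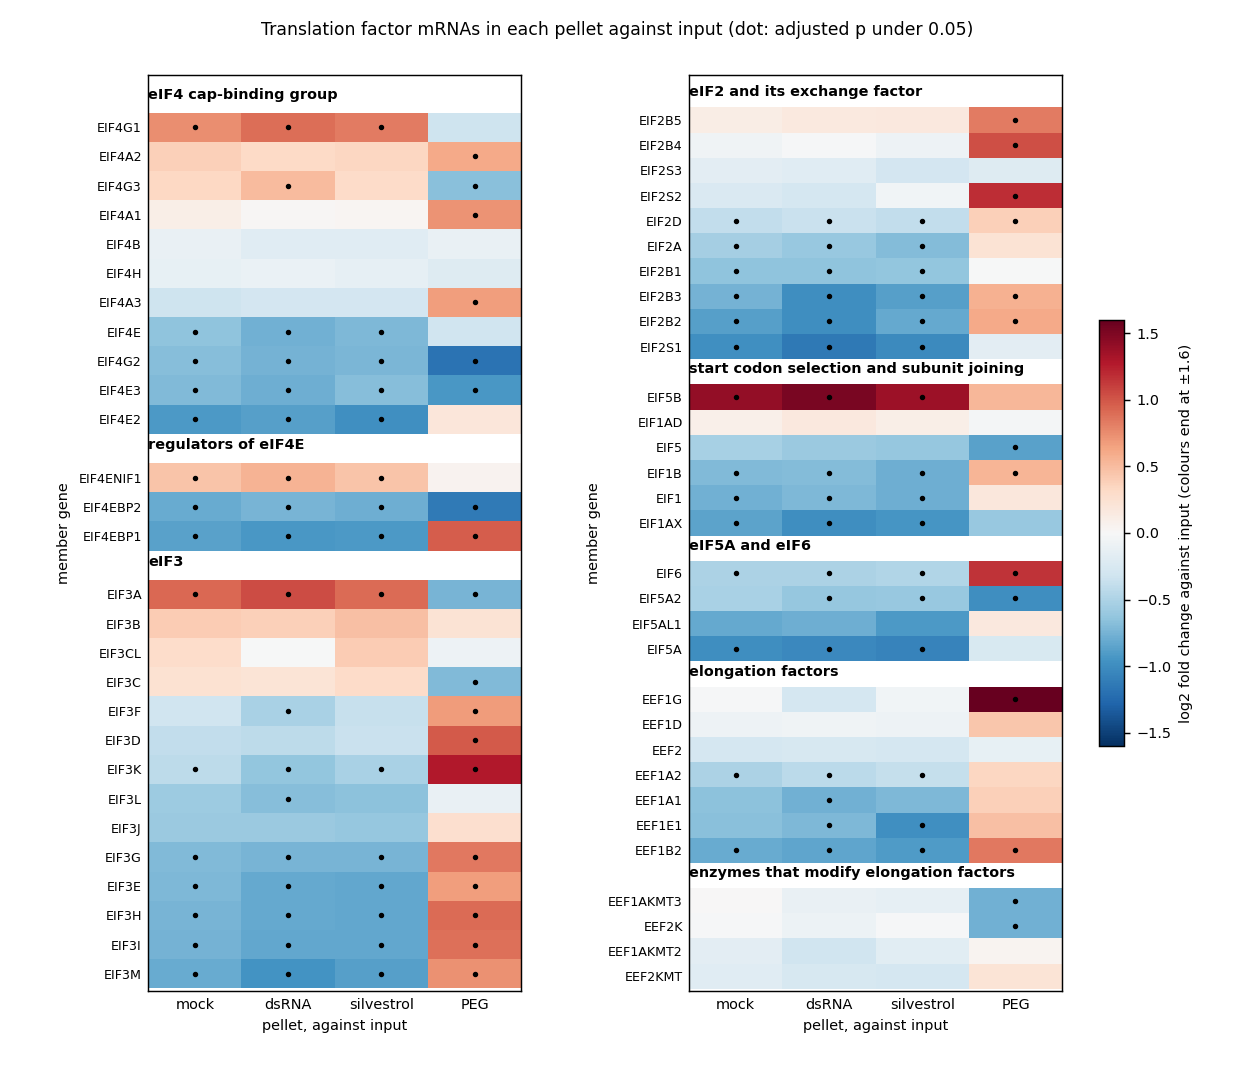
Log2 fold change against input of the 59 translation factor mRNAs (rows, by role) in mock, dsRNA, silvestrol and PEG pellets (columns), 3 libraries against 3, with TMM scaling. A dot marks an adjusted p under 0.05. Red rows for EIF5B, EIF3A and EIF4G1 stand out against mostly blue mock, dsRNA and silvestrol columns, and the PEG column is red for 22 members with a dot. With scaling by library size alone, 14 members would be called higher and 20 lower in PEG, beside 2337 and 6890 of all 16612 genes.

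The same 4 mRNAs rose in all of mock, dsRNA and silvestrol pellets: EIF5B, EIF3A, EIF4G1 and EIF4ENIF1. EIF5B, which encodes the GTPase that joins the ribosomal subunits (GRCh38, chr2:99337353-99401326, plus strand), had the largest rise. Its levels were 378, 209.8 and 229 CPM in input, 816, 636 and 657 in mock, 929, 645 and 695 in dsRNA, and 803, 669 and 592 in silvestrol. Every one of these pellet libraries was above every input library. The log2 fold changes were 1.40 in mock (SE 0.241, adjusted p = 0.00627), 1.51 in dsRNA (SE 0.254, adjusted p = 0.00382) and 1.37 in silvestrol (SE 0.244, adjusted p = 0.00497), so the mock pellets held EIF5B at 2.65 times its input share.

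EIF3A, the largest subunit of eIF3 (chr10:119033670-119080823, minus strand), had 738, 556 and 608 CPM in input and 1215, 1176 and 1131 in mock. The dsRNA pellets held 1298, 1269.9 and 1227 CPM and the silvestrol pellets 1206, 1185 and 1091, again with no overlap with input. EIF3A rose by a log2 fold change of 0.92 in mock (SE 0.14, adjusted p = 0.00448), 1.04 in dsRNA and 0.90 in silvestrol. EIF4G1 encodes the main scaffold of the cap-binding complex (chr3:184314495-184335358, plus strand). Its CPM were 828, 656 and 701 in input, 1444, 998 and 1124 in mock, 1672, 1159 and 1129 in dsRNA, and 1629, 1094 and 1092 in silvestrol. Here replicate 1 was the highest library of each group, and input and pellets still did not overlap. EIF4G1 rose by 0.74 in mock (SE 0.173, adjusted p = 0.0165), 0.90 in dsRNA and 0.83 in silvestrol. In mock this call disappeared in 3 of the 6 fits with 1 library left out. With an offset for GC content the EIF4G1 calls in mock, dsRNA and silvestrol failed without the block and passed with it.

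EIF4ENIF1, known as 4E-T, carries eIF4E into the nucleus and represses the mRNAs it binds. Its level was low, 32.9 to 36.0 CPM in input and 41.6 to 53.7 across the mock, dsRNA and silvestrol pellets, and it rose by 0.45, 0.56 and 0.45. The mock call of EIF4ENIF1 was absent from 4 of the 6 fits with 1 library left out and the silvestrol call from 3. A further member, EIF4G3, a paralogue of EIF4G1, rose in dsRNA pellets by 0.51 (SE 0.168, adjusted p = 0.0415), which 5 of the 6 fits with 1 library left out did not call. In mock and silvestrol EIF4G3 had 0.33 and 0.31 and did not pass (adjusted p = 0.0574 and 0.0761), and with the replicate block it passed in both (adjusted p = 0.00293 and 0.0235). DESeq2 called it in mock (adjusted p = 0.0373) and not in silvestrol (adjusted p = 0.0635). EIF4G3 was not called in dsRNA against mock pellets (0.18, 95% interval -0.25 to 0.61).

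**Figure D2:**
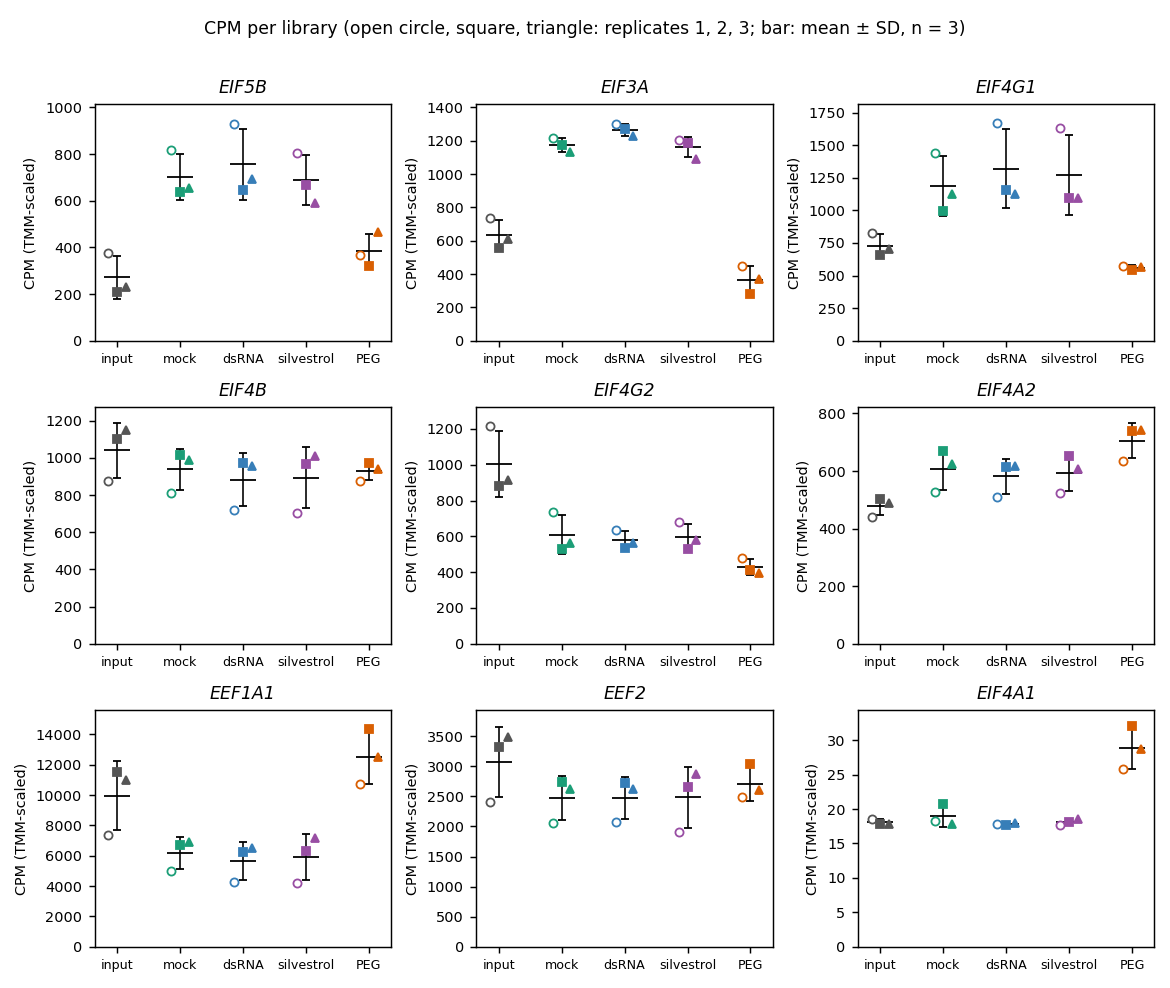
CPM with TMM scaling (vertical axes from 0) of 9 translation factor mRNAs in the 15 libraries, by group. Open circles, squares and triangles are replicates 1, 2 and 3, and the bars give the mean ± SD (n = 3). EIF5B, EIF3A and EIF4G1 were higher in every mock, dsRNA and silvestrol library than in any input library, EIF4G2 was lower, and the EIF4A1 level of 17.7 to 20.8 in the other groups lay below its PEG levels.

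Among the 11 tested members of the cap-binding eIF4 group, 1 rose and 4 fell in mock, 2 rose and 4 fell in dsRNA, and 1 rose and 4 fell in silvestrol pellets. Those that fell were the same in each: the cap-binding protein EIF4E, its relatives EIF4E2 and EIF4E3, and EIF4G2. EIF4E had 119, 82.0 and 81.4 CPM in input against 71.1, 52.3 and 52.2 in mock, 57.8, 49.2 and 53.5 in dsRNA, and 62.0, 55.1 and 50.8 in silvestrol. It fell by 0.65 in mock (SE 0.197, adjusted p = 0.0393), 0.77 in dsRNA and 0.72 in silvestrol. The mock call disappeared in 3 of the 6 fits with 1 library left out. EIF4E2, also called 4EHP, fell by 0.91 in mock, 0.88 in dsRNA and 0.98 in silvestrol, from 175 ± 28.2 CPM in input to 90.8 ± 9.71 in mock (SD, n = 3).

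EIF4G2, also called DAP5 or p97, resembles the part of eIF4G that binds eIF3 and eIF4A but lacks the eIF4E-binding part. Input held 1217, 883 and 915 CPM of it, mock 736, 531 and 562, dsRNA 636, 534 and 563, silvestrol 678, 527 and 579, and PEG 478, 414 and 395. All pellet libraries were below all input libraries. EIF4G2 fell by 0.69 in mock (SE 0.185, adjusted p = 0.0266), 0.76 in dsRNA, 0.73 in silvestrol and 1.19 in PEG (SE 0.178, adjusted p = 0.000955). EIF4G1 and EIF4G2 thus moved in opposite directions in the first 3 pellets, and EIF4G2 was also lower in PEG than in mock pellets by 0.44 (SE 0.165, adjusted p = 0.0408), a call absent from 3 of the 6 fits with 1 library left out.

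EIF4A1, EIF4A2 and EIF4A3 encode DEAD-box helicases, of which eIF4A1 and eIF4A2 work in initiation and eIF4A3 in the exon junction complex. EIF4A1 counts were 18.5, 17.9 and 17.8 CPM in input, 18.3, 20.8 and 17.8 in mock, 17.8, 17.7 and 18.0 in dsRNA, 17.7, 18.1 and 18.6 in silvestrol, and 25.8, 32.0 and 28.7 in PEG. Silvestrol against mock pellets gave -0.07 (95% interval -0.31 to 0.17) and dsRNA against mock -0.09 (-0.33 to 0.15). EIF4A1 was higher in PEG than in input by 0.72 (SE 0.129, adjusted p = 0.002). The counting of this gene is uncertain: 48.59% of its exon bases lie in other genes on the same strand. Of its 100-base windows, 100% recur in other genes of the annotation, SENP3-EIF4A1 among those genes. Its input level of 3.40 ± 0.0785 CPM per kb, against 78.0 ± 5.30 for EIF4A2, need not be a measure of the EIF4A1 mRNA.

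EIF4A2 had 442, 504 and 490.1 CPM in input, 529, 670.4 and 625 in mock, 509.5, 616 and 619 in dsRNA, 524, 652 and 609 in silvestrol, and 635, 739 and 742 in PEG. All pellet libraries were above all input libraries, but in mock, dsRNA and silvestrol the differences of 0.38, 0.32 and 0.35 did not pass (adjusted p = 0.0587, 0.0877 and 0.082). With the replicate block they did (adjusted p = 0.000649, 0.0154 and 0.0159). In PEG EIF4A2 rose by 0.61 (SE 0.126, adjusted p = 0.00403). EIF4A3 rose in PEG by 0.67 (adjusted p = 0.0493), which 5 of the 6 fits with 1 library left out did not call. In silvestrol against mock pellets, EIF4A2 differed by -0.03 (-0.37 to 0.31) and EIF4A3 by 0.04 (-0.40 to 0.48), and neither passed the test. EIF4B and EIF4H, which stimulate the helicase, were not called in any comparison with input, although both were called lower in PEG with scaling by library size alone. EIF4B held 874, 1101 and 1149 CPM in input and 809.6, 1016 and 989.7 in mock. About 11.9% of EIF4B exon bases are overlapped by the antisense gene TNS2-AS1, and the strand setting of the counting is not given here. Opposite-strand genes also overlap other members, among them EIF5B (10.81% by REV1), EIF2B1 (14.78% by DDX55) and EEF2KMT (29.25% by ALG1).

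The 3 tested regulators of eIF4E were all called in mock, dsRNA and silvestrol pellets, EIF4ENIF1 upward and the 4E-binding proteins EIF4EBP1 and EIF4EBP2 downward. EIF4EBP1 fell by 0.87, 0.93 and 0.91, and EIF4EBP2 by 0.81, 0.74 and 0.78. These 4E-binding proteins block eIF4E when growth signalling through mTOR is low. They parted in PEG. EIF4EBP1 held 115, 184 and 194 CPM in input and 234, 359 and 335 in PEG, a rise of 0.97 (SE 0.215, adjusted p = 0.00554). EIF4EBP2 held 147, 119.5 and 119 CPM in input and 58.8, 57.3 and 54.9 in PEG, a fall by 1.13 (SE 0.139, adjusted p = 0.00045).

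The 14 tested genes of eIF3, the factor that scaffolds the small subunit, moved in both directions. In mock pellets 1 rose (EIF3A) and 6 fell (EIF3E, EIF3G, EIF3H, EIF3I, EIF3K and EIF3M). In dsRNA EIF3F and EIF3L fell as well, which makes 8. The EIF3F call was absent from 4 of the 6 fits with 1 library left out, with scaling by library size alone (adjusted p = 0.0526) and with the GC offset (adjusted p = 0.159). The EIF3L call, absent from 5 of the 6, is uncertain also because 41.13% of its exon bases lie in another gene on the same strand. In silvestrol the count was again 1 up and 6 down. EIF3M was the largest fall of the group in mock, from 173, 166 and 166 CPM in input to 90.5, 97.4 and 93.7 (log2 fold change -0.81, SE 0.0982, adjusted p = 0.00358). EIF3B, the RNA-binding scaffold subunit, had 519, 362 and 375 CPM in input and 661, 474 and 486 in mock. That difference of 0.40 did not pass (adjusted p = 0.15) and passed with the replicate block (adjusted p = 0.000259) or without replicate 1 of both groups (adjusted p = 4.65e-05). EIF3C and EIF3CL are near-identical copies, with 95.14% and 97.05% of their 100-base windows shared, so their split is uncertain.

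In PEG, 8 of the 14 eIF3 genes rose over input (EIF3D, EIF3E, EIF3F, EIF3G, EIF3H, EIF3I, EIF3K and EIF3M) and EIF3A and EIF3C fell, the EIF3C call being absent from 4 of the 6 fits with 1 library left out. Of these rises, EIF3E and EIF3F were not called when libraries were scaled by size alone. EIF3K showed the largest rise among members that averaged 3 log2 CPM or more, from 135, 145 and 138 CPM in input to 289, 361 and 332 in PEG (1.28, SE 0.125, adjusted p = 0.000255). The same mRNA had fallen to 95.7, 107 and 102 CPM in mock. EIF3A, which had risen in the other pellets, held 446, 280.2 and 373 CPM in PEG, below every input library (-0.75, SE 0.201, adjusted p = 0.0131).

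The eIF2 group of 10 tested genes was formed by symbol. It held eIF2, its exchange factor eIF2B, and EIF2A and EIF2D, which belong to neither. None of the 10 rose in mock, dsRNA or silvestrol pellets, and 6 of them fell in each: EIF2A, EIF2B1, EIF2B2, EIF2B3, EIF2D and EIF2S1. EIF2S1 encodes eIF2α, the subunit that PKR phosphorylates. It held 335, 174 and 181 CPM in input, 137, 105 and 99.6 in mock, 109.8, 96.8 and 97.6 in dsRNA, and 122, 106 and 107 in silvestrol. Replicate 1 of input lay far above the other input libraries. EIF2S1 fell by 0.98 in mock (SE 0.272, adjusted p = 0.0292), 1.14 in dsRNA and 1.01 in silvestrol, and 2 of the 6 fits with 1 library left out did not make the mock call. Its partners EIF2S2 and EIF2S3, the β and γ subunits, had -0.24 and -0.17 in mock and were not called, although EIF2S2 passed with the replicate block (adjusted p = 0.0477).

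PEG pellets separated the eIF2 subunits further. EIF2S2 rose from 285, 222 and 229 CPM in input to 488, 566 and 574 in PEG (1.19, SE 0.156, adjusted p = 0.000565), whereas EIF2S1 (-0.17) and EIF2S3 (-0.20) were not called. The EIF2S1 value turned to 0.247 without input replicate 1. Of the exchange factor eIF2B, which reloads eIF2 with GTP, EIF2B4 (1.03) and EIF2B5 (0.83) rose in PEG, as did EIF2B2 (0.61) and EIF2B3 (0.57). EIF2D, which is not part of eIF2B, rose by 0.38. The EIF2B2, EIF2B3 and EIF2D calls were not made with scaling by library size alone.

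Of the 6 genes grouped under start codon selection and subunit joining, EIF5B was the only one to rise in mock, dsRNA and silvestrol. EIF1AD was placed in this group by its symbol only. In the same pellets EIF1, EIF1B and EIF1AX fell. EIF1AX fell by 0.86 in mock, 1.00 in dsRNA and 0.94 in silvestrol, from 109, 56.9 and 55.3 CPM in input to 47.2, 34.5 and 36.7 in mock. EIF5, the GTPase activator of eIF2, had 185, 109 and 107 CPM in input and 107, 79.7 and 85.6 in mock. That difference did not pass (adjusted p = 0.122) and passed with the replicate block (adjusted p = 0.000109) or without replicate 1 of both groups (adjusted p = 0.000417). It fell in PEG by 0.86 (SE 0.229, adjusted p = 0.0127), where EIF1B rose by 0.54. EIF5B was not called in PEG against input (0.53, adjusted p = 0.106) but passed with the replicate block (adjusted p = 0.0464), and its 367, 319 and 467 CPM there overlapped input.

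EIF5A, which keeps ribosomes moving through difficult peptide bonds and carries the amino acid hypusine, had the largest fall in mock and silvestrol. It held 1172, 696 and 738 CPM in input, 559, 379 and 341 in mock, 538, 341 and 363 in dsRNA, and 484, 369 and 359 in silvestrol. EIF5A fell by 0.99 (SE 0.262, adjusted p = 0.0249), 1.03 and 1.07. EIF6, which keeps the subunits apart, fell by 0.50 in mock, which 4 of the 6 fits with 1 library left out did not call, and rose in PEG by 1.16 (SE 0.15, adjusted p = 0.000545), from 116, 89.5 and 89.9 CPM in input to 199, 223 and 217. EIF5A2 went down in PEG by 0.99, from 26.5, 19.0 and 16.9 CPM to 10.7, 10.1 and 9.65.

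Of the 7 mRNAs grouped as elongation factors, 2 fell in mock, 4 in dsRNA and 3 in silvestrol, and none rose. EEF1E1 was placed in this group by its symbol only. EEF1A1, the most abundant member, held 7344, 11540.0 and 10967 CPM in input, 4961, 6696 and 6878 in mock, 4240.4, 6272 and 6511 in dsRNA, and 4208, 6302 and 7162 in silvestrol. Pellet and input libraries did not overlap, and within each of these groups replicate 1 was the lowest. EEF1A1 fell in dsRNA by 0.77 (SE 0.23, adjusted p = 0.03), and differences of similar size in mock (-0.65, adjusted p = 0.0516) and silvestrol (-0.73, adjusted p = 0.0588) did not pass there but did with the block (adjusted p = 8.54e-06 and 0.000836) and by DESeq2 (adjusted p = 0.00855 and 0.00907). The dsRNA call disappeared in 5 of the 6 fits with 1 library left out and with scaling by library size alone. Near-identical EEF1A1 pseudogenes hold 23.22% of its 100-base windows, which limits how surely its reads can be assigned.

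EEF1A2, its paralogue, had 969, 957 and 999.8 CPM in input and fell to 707, 610.5 and 689 in mock (-0.51, SE 0.115, adjusted p = 0.0146). EEF1B2, the exchange factor for eEF1A, fell from 400.2, 386 and 368 CPM in input to 198, 221 and 226 in mock (-0.81, SE 0.111, adjusted p = 0.00391). In PEG it stood at 612, 708 and 681 CPM, a rise of 0.84 (SE 0.128, adjusted p = 0.00101). EEF2 held 2399.8, 3328 and 3488 CPM in input and 2050.2, 2735 and 2625 in mock. It was not called in any pellet against input (-0.28, -0.27, -0.28 and -0.13), although scaling by library size alone gave -0.49 in PEG (adjusted p = 0.043). With the GC offset and no block EEF2 passed in mock (-0.60, adjusted p = 0.0267), dsRNA (-0.65, adjusted p = 0.0237) and silvestrol (-0.63, adjusted p = 0.0444). With the block it passed in mock (adjusted p = 0.014) and dsRNA (adjusted p = 0.0384). EEF1G rose by 2.40 in PEG, but 99.93% of its exon bases lie in a second gene on the same strand and its level was only 0.449 to 6.24 CPM, so its values may cover only part of its reads. None of the 4 enzymes that modify elongation factors was called in mock, dsRNA or silvestrol by edgeR or by DESeq2, and 0 of them had an unadjusted p under 0.05. With the block EEF2KMT was lower in dsRNA (adjusted p = 0.0425) and silvestrol (adjusted p = 0.0416) and EEF1AKMT2 in dsRNA (adjusted p = 0.0347). EEF2K and EEF1AKMT3 fell in PEG by 0.76 and 0.77.

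The 9 members known as TOP mRNAs were EEF1A1, EEF1B2, EEF1D, EEF1G, EEF2, EIF3E, EIF3F, EIF3H and EIF4B. Starts are printed for those with a matching tract, the feature that unites these mRNAs. RefSeq start regions of the GRCh38.p14 build were listed for 47 of the 59 members, and each line gives 10 bases before an annotated start and 20 bases from it, 5′ to 3′. Capitals mark the pyrimidine run from the start where it opens with C followed by at least 4 pyrimidines, on the gene's strand. EIF5B is given as a start without such a run. The EEF1B2 line is the second of its 2 listed starts.
EEF1A1 (chr6:73521013-73521042, minus strand): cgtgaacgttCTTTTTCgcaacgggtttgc
EEF1B2 (chr2:206159885-206159914, plus strand): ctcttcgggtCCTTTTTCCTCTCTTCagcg
EEF2 (chr19:3985444-3985473, minus strand): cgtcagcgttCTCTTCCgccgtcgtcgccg
EIF3F (chr11:7987327-7987356, plus strand): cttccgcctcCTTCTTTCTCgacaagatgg
EIF4B (chr12:53006446-53006475, plus strand): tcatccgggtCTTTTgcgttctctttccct
EIF5B (chr2:99337379-99337408, plus strand): ctgagaactcacaccatatgtgtcctgttc

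Such a run began at a listed start of 5 of the 6 TOP members with a listed start and of 7 of the 41 other members with one, which is 12 of 47 in all. Across the annotation 4.07% of 35116 starts had it, and 7.17% of the 11830 tested genes with a listed start. The match is a description of these letters and not of a binding site. In mock pellets 3 of the 9 TOP members fell (EEF1B2, EIF3E and EIF3H), in dsRNA 5 (also EEF1A1 and EIF3F, whose calls were absent from 5 and 4 of the 6 fits with 1 library left out) and in silvestrol 3, and none rose. Their median log2 fold changes were -0.32, -0.51 and -0.37, beside -0.51, -0.55 and -0.50 for the 50 members off the list. In PEG 5 of the 9 rose and none fell, with a median of 0.67, beside 0.19 for the other 50 members, of which 17 rose and 10 fell. Among these rises, EIF3E and EIF3F were lost with scaling by library size alone.

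The members range from 339 to 4797 coding bases, and this length was set beside their changes. Coding length was taken from 1 GENCODE transcript a gene, and the class limits were chosen after the values were seen, so the counts are descriptive. Of the 10 members with at least 2400 coding bases, 4 rose in mock, 5 in dsRNA and 4 in silvestrol, and the same 1, EIF4G2 (2721 bases), fell in each. Of the 19 members from 1200 to 2400 bases none rose, and 5, 7 and 5 fell. Of the 30 shorter members none rose, and 19, 22 and 21 fell. The median log2 fold change in mock was 0.37, -0.33 and -0.71 from the longest to the shortest class. In PEG the same classes gave 0 up and 4 down, 10 up and 2 down, and 12 up and 4 down.

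The Spearman correlation of coding length with the log2 ratio to input across the 59 members, as the mean of the 3 libraries, was 0.59 in mock, 0.59 in dsRNA, 0.60 in silvestrol and -0.088 in PEG. For the 13521 protein-coding genes tested it was 0.39, 0.40, 0.40 and -0.44. With whole transcript length the members gave 0.17, 0.16, 0.20 and -0.60, and the protein-coding genes 0.25, 0.24, 0.25 and -0.60. With summed exon length the members gave 0.21, 0.20, 0.22 and -0.40, and the protein-coding genes 0.21, 0.20, 0.20 and -0.50. With 3′ UTR length the members gave -0.11, -0.13, -0.11 and -0.51, and the protein-coding genes 0.023, 0.0046, 0.0086 and -0.47. Genes of 1 library share its depth and composition and are not replicates, so these correlations are given without a p. With GC content the members gave 0.23, 0.27, 0.28 and 0.24, and the protein-coding genes 0.41, 0.46, 0.45 and 0.34. Base composition thus moved with the changes as well, and its part in them was not tested.

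Without the block, no member passed the threshold between dsRNA or silvestrol and mock pellets. In dsRNA against mock 0 of the 59 members and 0% of all genes were called. With the block and a GC offset together, EIF4G3 was called higher and EIF2B3 and EIF3K lower in dsRNA than in mock, among 131 higher and 442 lower of 16612 genes. Without the block, EIF3K was the one member with an unadjusted p under 0.05 (-0.21, adjusted p = 1.00), followed by EIF3M (-0.15) and EEF1AKMT2. The 3 dsRNA libraries lay wholly below the 3 mock libraries for EIF3K and EIF3M and wholly above for EIF3A (0.11), beside 6.61% of all genes without overlap. EIF3K held 88.4, 86.6 and 88.2 CPM in dsRNA and 95.7, 107 and 102 in mock. The 95% intervals of 43 of the 59 members lay within 0.5 of 0 on the log2 scale, and all 54 members that averaged 3 log2 CPM or more stayed within 1.

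In silvestrol against mock 0 members and 0% of all genes were called, and no member had an unadjusted p under 0.05. The smallest was EEF1E1, a scaffold of the aminoacyl-tRNA synthetase complex (-0.31, 95% interval -0.65 to 0.03, adjusted p = 1.00), the only member without overlap, beside 3.43% of all genes. Its levels were 6.85, 5.44 and 6.78 CPM in mock and 5.43, 5.2 and 4.77 in silvestrol. EEF1AKMT3 (-0.16) and EIF2S3 (-0.11) came next. Intervals of 45 members lay within 0.5 of 0. DESeq2 also called 0 members in the 3 comparisons among mock, dsRNA and silvestrol.

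Between dsRNA and silvestrol pellets 0 members and 0% of all genes were called, and no member had an unadjusted p under 0.05 by edgeR. EIF3A (0.13) and EIF3CL (-0.41) did not overlap, beside 5.48% of all genes. With the replicate block EIF2S2 was lower in dsRNA (-0.22, adjusted p = 0.0106), beside 2.73% of all genes called in either direction in that fit. EIF2S2 held 175, 234 and 182 CPM in dsRNA and 206, 281 and 204 in silvestrol, lower in 3 of 3 same-numbered pairs. In that fit no member was called in dsRNA against mock, where 2.81% of all genes were, or in silvestrol against mock (0.012%). Intervals without the block lay within 0.5 of 0 for 40 members. These widths leave room for differences in single members, and a missed threshold does not show that the pellets were alike.

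PEG pellets differed from mock pellets in 46 of the 59 members, 36 higher and 10 lower, beside 31.3% and 32.2% of all genes. The median log2 difference was 0.76 for the members and -0.031 for all genes. With scaling by library size alone, 28 members were higher and 19 lower, beside 3118 higher and 8272 lower of all 16612 genes. The median of the members was then 0.30 and that of all genes -0.49. EIF4EBP1 (1.90, SE 0.184, adjusted p = 2.01e-05), EIF3K (1.76, SE 0.126, adjusted p = 6.25e-06) and EIF3H (1.72, SE 0.18, adjusted p = 3.01e-05) rose most among members that averaged 3 log2 CPM or more. EIF3H, for example, held 190.2, 259 and 269.7 CPM in mock and 602, 875 and 773 in PEG.

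EIF3A (-1.61, SE 0.179, adjusted p = 4.37e-05), EIF4G1 (-1.01, SE 0.167, adjusted p = 0.000488) and EIF4G3 (-0.93, SE 0.14, adjusted p = 0.000282) fell most in PEG against mock. EIF4G1 held 576, 543 and 564 CPM in PEG, below its lowest input library in all 3, and against input its -0.34 did not pass (adjusted p = 0.0819). EIF5B was also lower in PEG than in mock (-0.80, SE 0.176, adjusted p = 0.00278). By role, 9 of 10 eIF2 group genes, 10 of 14 eIF3 genes and 6 of 7 elongation group genes were higher in PEG than in mock, and 0, 2 and 0 were lower. EEF1A1 led the elongation factors by level, with 10715, 14347 and 12482 CPM in PEG (1.09, SE 0.194, adjusted p = 0.00075). The rises of EIF2B1, EIF3L, EIF4A1, EIF4E, EIF5A, EIF5AL1, EEF1D and EEF2KMT were not called with scaling by library size alone, and there EIF4E turned to -0.061.

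**Figure D3:**
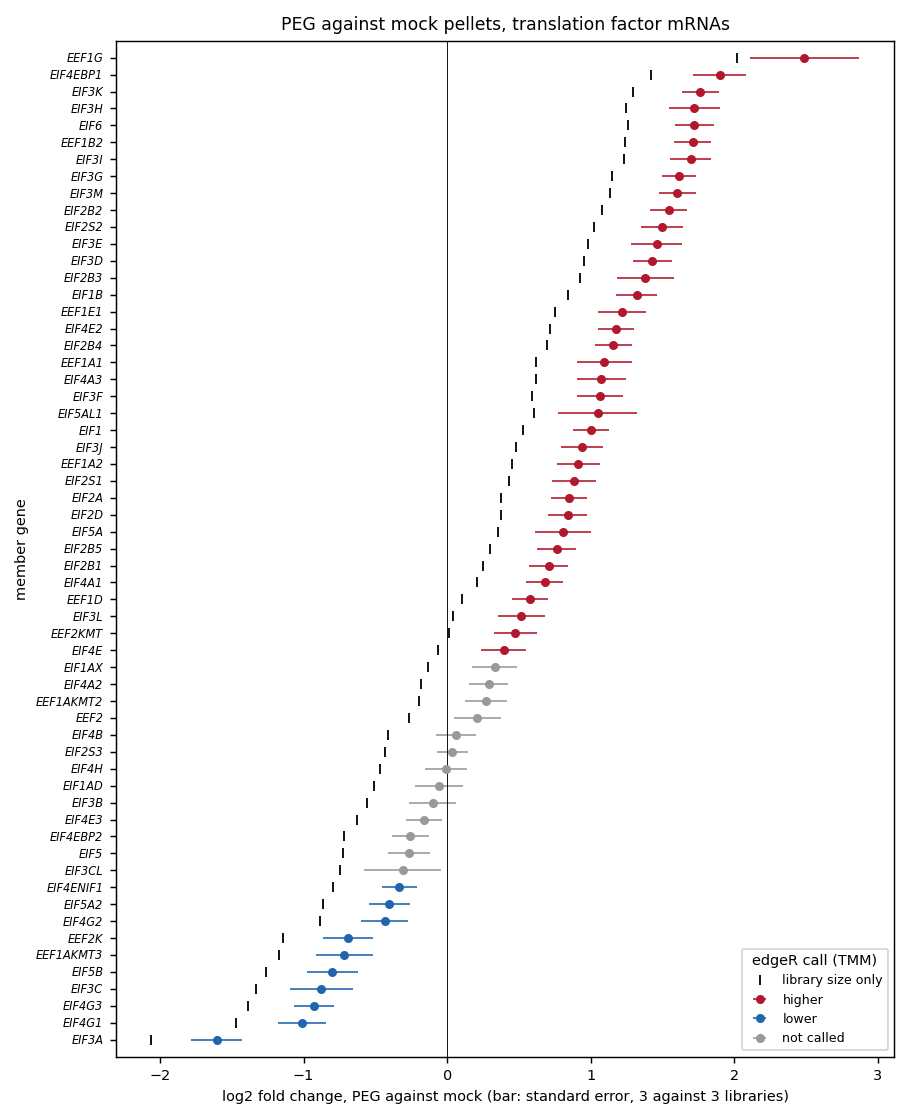
Log2 fold change of PEG against mock pellets (horizontal axis) for the 59 translation factor mRNAs (vertical axis, ordered), with points and standard error bars from edgeR with TMM scaling, 3 libraries against 3. Vertical ticks give the value with scaling by library size alone. Points span -1.61 for EIF3A to 2.49 for EEF1G, and the ticks lie to the left of every point.

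Set side by side, 13 of the 25 members that fell in all of mock, dsRNA and silvestrol rose in PEG against the same input libraries: EEF1B2, EIF1B, EIF2B2, EIF2B3, EIF2D, EIF3E, EIF3G, EIF3H, EIF3I, EIF3K, EIF3M, EIF4EBP1 and EIF6. Of all genes 25.5% rose and 25.9% fell in PEG, and these joint patterns were not counted over all genes. At least EIF2B2, EIF2B3, EIF2D and EIF3E lost their PEG call with scaling by library size alone. That fit lost 8 of the 22 rises of members in PEG against input. EIF4E3, EIF4EBP2 and EIF4G2 fell in all 4 pellets. EIF3A was the one member that rose in the first 3 and fell in PEG. Of the 24 members called in none of the first 3, 8 rose in PEG, among them EIF4A1, EIF4A2, EIF4A3 and EIF2S2, and 4 fell. No member rose in all 4.

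The 31 other translation genes chosen beside the members, such as release factors, poly(A)-binding protein partners and the eIF2α kinases, gave 1 up and 12 down in mock, 3 up and 17 down in dsRNA, 1 up and 16 down in silvestrol, and 7 up and 8 down in PEG. Of all genes 17.6% rose and 15.8% fell in mock, and 21.1% and 19.6% in dsRNA. The shares were 19.4% and 18.1% in silvestrol, and 25.5% and 25.9% in PEG. DOHH, the hydroxylase that completes the hypusine of eIF5A, rose in all 4 pellets by 0.99, 1.06, 1.02 and 0.94. DENR, a partner of MCTS1 in reinitiation, fell in all 4 by 0.93, 1.09, 1.02 and 1.22. Among the kinases, EIF2AK1 fell in all 4 pellets, by 0.57, 0.60, 0.61 and 0.84. EIF2AK2, which encodes PKR, fell in dsRNA by 0.60 and in PEG by 0.90 and was not called in mock (-0.071) or silvestrol (-0.16). Compared directly without the block, EIF2AK2 in dsRNA pellets did not pass against mock (-0.54, adjusted p = 0.469) or silvestrol (-0.45, adjusted p = 0.605). EIF2AK3 rose in dsRNA by 0.47 and fell in PEG by 0.62. Its values in mock (0.36, adjusted p = 0.0907) and silvestrol (0.40, adjusted p = 0.0783) did not pass, nor did dsRNA against mock (0.10). EIF2AK4 was called in none of the 4 pellets against input.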

How the data were processed

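Per the labels, the submitters trimmed reads with Trimmomatic 0.36, aligned them to GRCh38 with STAR 2.5.2b and counted them with featureCounts (Subread 1.5.2). The deposited values are raw read counts per gene. The strand setting and annotation release are not given in the sources used here. Symbols came from GENCODE 29 (56898 of 57500 IDs). Members and lists were chosen with earlier results of these data known. Named genes were a set of core factors, the 3 largest rises and falls past the threshold per comparison without overlap and averaging 3 log2 CPM (or the 3 smallest p), and members going against their role, picked after their values were seen, as were EEF1G, the other translation genes named and members named for a lost call. Genes reaching 10 counts in 2 or more replicates of every condition were tested with edgeR 4.0.16 (R 4.3.3; TMM, prior count 2, glmQLFTest) on the 6 libraries of each of 8 comparisons, and the script was tested on simulated data. The replicate numbers are shared by all groups: deviations from group means correlated at 0.131 to 0.861 in all 30 same-number pairs (median 0.543) and -0.746 to 0.583 in the 60 others. Centring on 3 libraries itself lowers the values of the others. Replicates 2 and 3 were little separated: input replicate 2 gave 0.583 with both mock replicates 2 and 3, and mock replicate 2 gave 0.649 and 0.539 with dsRNA replicates 2 and 3. Whether the numbers mark true pairs was thus not settled. Alternatives were a replicate block, DESeq2 1.42.0, other scalings and filters, a GC offset and leaving out libraries.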

Additional observations from a re-analysis of the deposited data

How the results depend on the processing

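With the replicate block, 8 members were higher in mock against input and 7 in silvestrol against input, beside 32.5% and 30.8% of all genes. EIF2S2 was the 1 member lower in dsRNA against silvestrol, and no call of the fits without the block was lost. The block added 4 higher and 12 lower members in mock, 2 and 8 in dsRNA, 3 and 9 in silvestrol and 2 and 0 in PEG against input and EIF4A2 in PEG against mock, and it changed no other call. With the block and a GC offset, mock against input gave 7 members higher and 38 lower, beside 5114 and 5005 of all 16612 genes. Silvestrol against input gave 7 higher, beside 4904 of all genes. In dsRNA against mock 1 was higher (EIF4G3) and 2 lower (EIF2B3 and EIF3K), beside 131 and 442 of all genes. In dsRNA against silvestrol 1 was higher (EIF4G3) and 1 lower (EIF2S2), beside 96 and 439 of all genes. A GC offset without the block removed 9, 9 and 8 calls in mock, dsRNA and silvestrol against input, EIF4G1, EIF1AX, EIF3E and EIF2B1 in all 3, EIF4E and EIF4G2 in mock and silvestrol and EIF2S1 in mock among them, and with the block removed none. With library size alone, PEG against input gave 14 members higher and 20 lower, beside 2337 and 6890 of all 16612 genes. PEG against mock gave 19 members lower, beside 8272 of all genes. In PEG against mock EIF4E then turned to -0.061, EIF4B to -0.411 and EIF2S3 to -0.431.

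Without replicate 1 of both groups, chosen after seeing the data, 8 members were higher and 40 lower in mock against input. Of all 16612 genes, 5296 were higher and 5086 lower there. Against input 8 members were higher in dsRNA, 8 in silvestrol and 35 in PEG, beside 5575, 5462 and 5790 of all genes. Every earlier call was kept. EIF2S1 in PEG against input turned to 0.188 (-0.347 to 0.247 with 1 library left out, the highest without input replicate 1). Leaving out 1 library at a time gave 2 to 6 members higher and 12 to 26 lower in mock against input. In dsRNA it gave 4 to 6 and 19 to 31, and in silvestrol 2 to 6 and 14 to 31. In PEG it gave 19 to 32 and 9 to 11 against input, and 34 to 38 and 6 to 9 against mock. Among mock, dsRNA and silvestrol it gave 0. Of all genes, 1335 to 3068 were higher and 1017 to 2854 lower in mock, and 2360 to 3498 and 1960 to 3419 in dsRNA. The ranges were 2148 to 3180 and 1711 to 3283 in silvestrol, and 2944 to 5195 and 3475 to 5063 in PEG. In PEG against mock they were 4662 to 5669 and 4194 to 5773 of all genes. The lowest counts of higher members came without input replicate 2 or 3 (mock and silvestrol) or mock replicate 3, and those of lower members without mock replicate 2 or 3, dsRNA replicate 2 or 3, silvestrol replicate 2 or PEG replicate 3 (against mock). The cause was not tested. With 3 libraries a group and 1 standing apart, the precision of single members is limited.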
